A study of Mus musculus with 11 samples.

Results

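Slc2a1, Slc2a3, Hk1, Hk2, Pfkl, Pfkp, Pgk1, Eno1, Pkm and Ldha are 10 genes that carry glucose into the cell and break it down to pyruvate and lactate. They were listed by name, with earlier results of these data known, and were found on the arrays by mapping each probe's RefSeq accession to a mouse symbol. All 10 were found, with 14 probes, among 20964 named genes and 55648 probes on the array, and all 10 were among the 16279 genes tested. RNA came from unsorted mouse embryonic stem (ES) cells of 3 lines, E14, HVJu5.1 and HVJu9.3, on the 129/Ola background, kept for at least 3 passages in 1 of 3 media. There were 5 arrays of 2i/LIF, 3 of KOSR/LIF and 3 of serum/LIF. All media held LIF, leukaemia inhibitory factor, a cytokine that sustains self-renewal. 2i adds inhibitors of the kinases MEK and GSK3, KOSR is a commercial serum replacement, and serum/LIF is the standard medium. The series asks whether culture media hold ES cells in distinct states.

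Glucose enters through facilitative carriers of the Slc2a family. It is trapped as glucose 6-phosphate by a hexokinase and committed to glycolysis by phosphofructokinase, and the lower steps then yield ATP and pyruvate. Pyruvate either becomes lactate or enters the mitochondrion to be oxidised. ES cells are known for high glycolytic flux, which differs between culture states, and the transcription factors Myc and HIF1 are known activators of many of these genes.

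A level below is the log2 of a probe's processed intensity minus the array's 75th percentile of it, so levels compare arrays for 1 probe and not probes with each other. A difference is between mean levels and is given with its standard error (SE). A gene passed where the p-value of limma's test, adjusted over all 16279 genes, was below 0.05. The 14 probes were well above background and unsaturated on all 11 arrays. The array of KOSR/LIF replicate 3 was the dimmest, with a 75th percentile of 65.4 intensity units and 43.7% of probes well above background, against 176 to 538 units and 53.7% to 72.6% on the others. The arrays fell on 3 scan days. Day 1 held 2i/LIF replicates 3 and 4, KOSR/LIF replicates 1 and 2 and serum/LIF replicates 1 and 2. Day 2 held 2i/LIF replicate 2 and KOSR/LIF replicate 3, and day 3 held 2i/LIF replicates 1 and 5 and serum/LIF replicate 3.

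Some scanner files went against their labels when set beside the deposited value table. Over all probes, 6 scanner files correlated best with their own column of that table, at 0.990 or more. Those of 2i/LIF replicates 1 and 4 each matched the other's column, and so did those of KOSR/LIF replicates 1 and 2, at 0.991 or more. These exchanges stayed within a medium. The scanner file of KOSR/LIF replicate 3 matched no column, with a highest correlation of 0.924 and 0.917 with its own. Among scanner files, that of KOSR/LIF replicate 3 correlated at 0.924 with 2i/LIF replicate 2, of the same scan day. It correlated at 0.921 and 0.922 with KOSR/LIF replicates 1 and 2. The value table has other values for that sample. Its column there correlated at 0.978 with that of serum/LIF replicate 3. With those of KOSR/LIF replicates 1 and 2 it correlated at 0.974 and 0.976. These correlations therefore do not place that sample with its own medium. For the genes named in comparisons with KOSR/LIF, every call lost without that array or in the value table is given below. Titles and source names also give different lines for 4 of the 5 samples of 2i/LIF, so line was left out of the test.

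All 10 markers of ES cells were above background on every array. Their summed level was 9.47 to 9.95 in 2i/LIF, 9.15 to 9.46 in KOSR/LIF and 9.56 to 9.99 in serum/LIF. In the same order, Utf1 averaged 3.46, 6.51 and 6.28, while Nanog averaged 4.33, 2.53 and 3.51. The summed level of 9 fibroblast (feeder) markers ran from 2.18 to 2.57 in 2i/LIF, 2.99 to 3.77 in KOSR/LIF and 2.41 to 3.91 in serum/LIF, and Dcn and Twist2 were above background on no array of 2i/LIF. The members of that list differed: Fbln1 averaged 1.72 in 2i/LIF, 0.05 in KOSR/LIF and 0.33 in serum/LIF, while Col1a1 averaged -2.07 in 2i/LIF, 1.20 in KOSR/LIF and 0.76 in serum/LIF. Of the 9, 1 rose and 4 fell in 2i/LIF against serum/LIF, with a median difference of -1.65, beside 16.7% of all genes called. The sum of 6 epiblast-like markers was 3.83 to 5.28 in 2i/LIF, 5.15 to 6.11 in KOSR/LIF and 6.30 to 7.02 in serum/LIF, and Fgf5 was above background on no array of 2i/LIF. The sum of 8 trophoblast markers was 3.65 to 4.40 in 2i/LIF, 3.92 to 5.07 in KOSR/LIF and 6.46 to 7.49 in serum/LIF. Members of this list differed too. In the same order, Krt18 averaged 1.36, 3.27 and 6.50, while Eomes averaged -1.10, -0.66 and -0.89 and Elf5 -4.82, -5.04 and -5.50. The sum of 8 primitive endoderm markers was -1.59 to -0.76 in 2i/LIF, 0.50 to 3.74 in KOSR/LIF and -0.57 to 0.75 in serum/LIF. Sox7 was above background on no array of 2i/LIF. Here too the members differed. In the same order, Gata4 averaged -2.58, -0.44 and -2.60 and Sox17 -3.87, -2.18 and -3.95, while Dab2 averaged -5.87, -0.98 and -1.75. Of the 8, 1 fell and 0 rose in 2i/LIF against serum/LIF, with 3 positive and 5 negative differences. Against KOSR/LIF, 7 of the 8 fell in 2i/LIF. The sums of these marker lists moved with the media, and their part in the results below was not tested. In bulk RNA, fewer cells of a type and less RNA per cell cannot be told apart.

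Against serum/LIF, the 2i/LIF arrays had Hk1 higher and Slc2a1 lower, 2 of the 10 genes, where 16.7% of all genes passed, 6.74% as higher and 9.98% as lower. In KOSR/LIF against serum/LIF, 0 of the 10 passed in limma's test or in any alternative tried, and 0 had an unadjusted p under 0.05, against 4.58% of all genes that passed (2.37% higher and 2.21% lower). In 2i/LIF against KOSR/LIF, Hk1 and Pfkp rose and Slc2a1 fell, 3 of 10, where 14.7% of all genes passed, 5.95% as higher and 8.72% as lower. The median difference of the 10 was -0.41 in 2i/LIF against serum/LIF, with 0.03 for all genes. It was -0.18 in KOSR/LIF against serum/LIF, with -0.03 for all genes, and -0.21 in 2i/LIF against KOSR/LIF, with 0.02 for all genes. The first and last of these comparisons share the 2i/LIF arrays, and each medium enters a pair of comparisons.

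**Figure D1:**
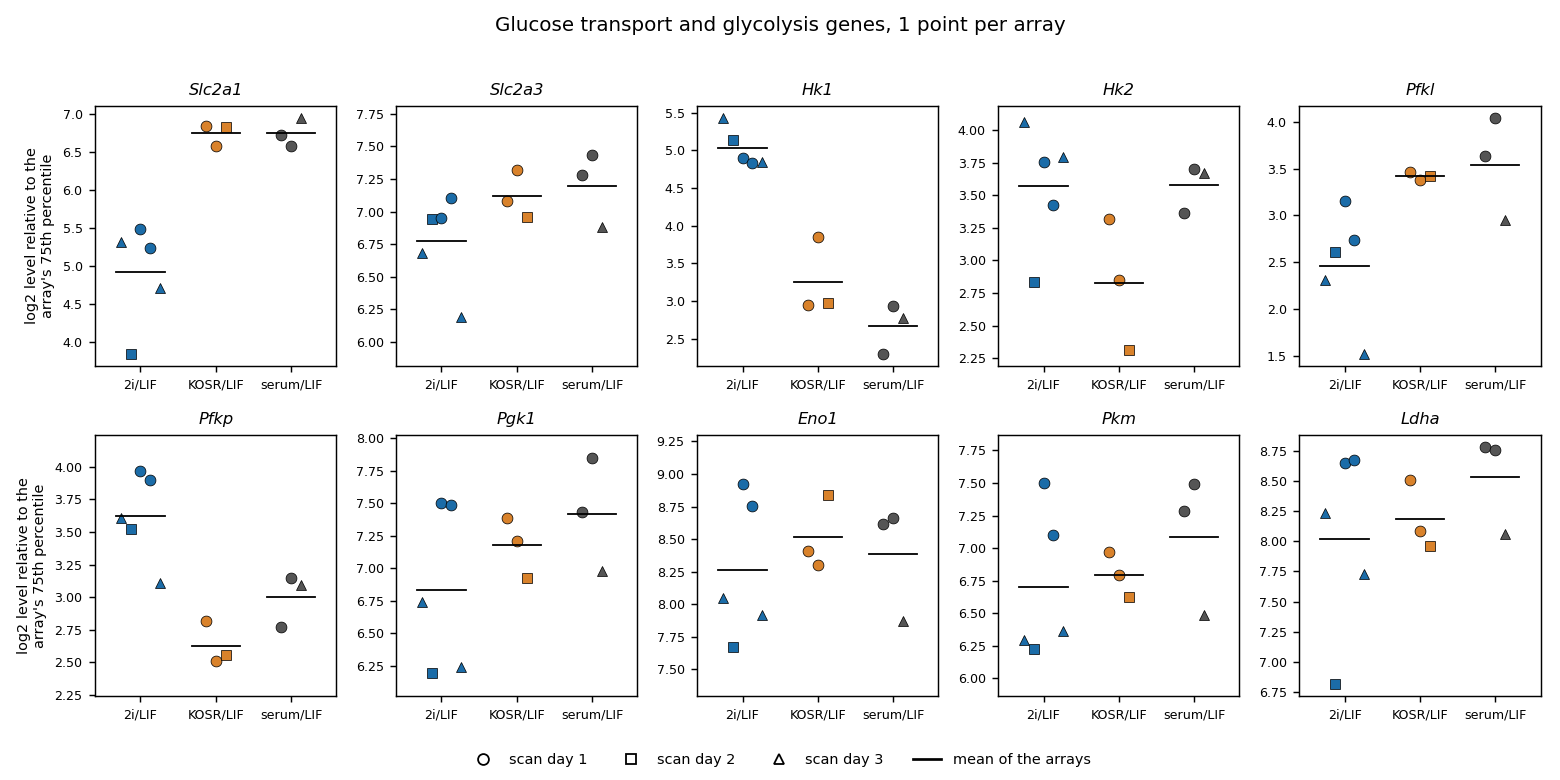
Level of each of the 10 genes on each array (log2, relative to the array's 75th percentile), by medium, with the point's shape giving the scan day and the bar the mean. The 5 arrays of 2i/LIF lie between 3.84 and 5.49 for Slc2a1 and between 4.83 and 5.43 for Hk1, apart from those of the other media.

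Slc2a1 encodes GLUT1, the carrier for basal glucose uptake in most cells. Its levels were 5.32, 3.84, 5.49, 5.24 and 4.71 in 2i/LIF replicates 1 to 5, against 6.84, 6.57 and 6.83 in KOSR/LIF and 6.72, 6.57 and 6.95 in serum/LIF. Every array of 2i/LIF was below every array of the other media, by at least 1.08, and replicate 2 was the lowest. The means were 4.92 ± 0.67 in 2i/LIF (SD, n = 5), 6.75 ± 0.15 in KOSR/LIF and 6.75 ± 0.19 in serum/LIF (n = 3 each). Slc2a1 fell 3.55-fold in 2i/LIF relative to serum/LIF (difference -1.83 ± 0.34, adjusted p = 0.00297) and by as much relative to KOSR/LIF (-1.83 ± 0.34, adjusted p = 0.00386). The difference between KOSR/LIF and serum/LIF was 0.00 ± 0.38 (95% interval -0.83 to 0.84). Without KOSR/LIF replicate 3 the difference between 2i/LIF and KOSR/LIF was -1.79 (adjusted p = 0.0157), and in the value table it was -1.95 (adjusted p = 0.000785). Within scan day 1 the difference of 2i/LIF from serum/LIF was -1.28 (adjusted p = 0.0149). Within day 3, where serum/LIF has 1 array, it was -1.93 (adjusted p = 0.0726).

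The 250 bases before the annotated start of Slc2a1 lie on the plus strand of chromosome 4 (chr4:119108495-119108744, GRCm38.p6, from RefSeq) and are shown as the promoter of the gene that fell. Capitals mark 3 motifs, searched on both strands: ACGTG and GCGTG, the core to which HIF binds, and GGGCGG, the GC box of Sp factors.
Slc2a1: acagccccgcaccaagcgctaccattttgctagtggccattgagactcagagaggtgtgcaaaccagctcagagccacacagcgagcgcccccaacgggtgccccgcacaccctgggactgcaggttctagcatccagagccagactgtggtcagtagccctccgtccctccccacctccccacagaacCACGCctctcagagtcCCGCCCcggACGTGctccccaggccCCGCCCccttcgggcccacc
These letters hold ACGTG 1 time, GCGTG 1 time and GGGCGG 2 times. Of the 32851 RefSeq promoters of this length, 16.6% hold ACGTG, 28.2% GCGTG and 32.7% GGGCGG, so none of the 3 is rare. RefSeq promoters were at hand for 9 of the 10 genes, with 14 starts. Of these starts, 5 hold ACGTG (1 each of Slc2a1, Hk2, Pgk1, Pkm and Ldha), 8 hold GCGTG and 8 hold GGGCGG. A pair of the starts of Eno1 share most of their bases and are both counted for GCGTG and GGGCGG. The starts are thus not independent of each other. The E-box CACGTG, which contains ACGTG and is the motif of Myc, was found at 1 start, the upstream one of Ldha, against 6.02% of all promoters. TATAAA was found at 0 of the 14 starts, against 12.4% of all. A match is a string of letters and no evidence of binding.

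Slc2a3, the high-affinity carrier GLUT3, did not pass in any comparison. Its levels were 6.69, 6.94, 6.95, 7.10 and 6.19 in 2i/LIF, against 7.08, 7.32 and 6.95 in KOSR/LIF and 7.28, 7.44 and 6.88 in serum/LIF. The arrays of the 3 media overlapped, with 2i/LIF replicate 5 lowest. The difference between 2i/LIF and serum/LIF was -0.43 ± 0.25 (adjusted p = 0.328), with a 95% interval of -0.97 to 0.12. That interval leaves out a fall as large as the -1.83 of Slc2a1.

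Hk1, the hexokinase expressed in most tissues, showed the largest difference of the 10. The probe that stands for it had levels of 5.43, 5.13, 4.90, 4.83 and 4.84 in 2i/LIF, against 2.95, 3.85 and 2.97 in KOSR/LIF and 2.29, 2.93 and 2.78 in serum/LIF. Every array of 2i/LIF was above every other array, by at least 0.97 for KOSR/LIF and 1.90 for serum/LIF. The means were 5.03 ± 0.26 in 2i/LIF (SD, n = 5), 3.26 ± 0.52 in KOSR/LIF and 2.67 ± 0.34 in serum/LIF (n = 3 each). Hk1 was 5.14-fold higher in 2i/LIF than in serum/LIF (2.36 ± 0.27, adjusted p = 0.000144) and 3.41-fold higher than in KOSR/LIF (1.77 ± 0.27, adjusted p = 0.00123). The difference between KOSR/LIF and serum/LIF did not pass (0.59 ± 0.31, adjusted p = 0.335). Within scan day 1 Hk1 was higher in 2i/LIF than in serum/LIF by 2.25 (adjusted p = 0.0170), and within day 3 by 2.36 (adjusted p = 0.0444). Against KOSR/LIF, the difference within scan day 1 was 1.46 and did not pass (adjusted p = 0.0637). It was 1.62 without KOSR/LIF replicate 3 (adjusted p = 0.00593) and 1.62 in the value table (adjusted p = 0.00158).

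The dimmer probe of Hk1, A_55_P2118843, gave the same ordering of 2i/LIF. Its levels were 0.70, 2.04, 1.52, 1.34 and 1.16 in 2i/LIF, against -0.49, 0.03 and -1.91 in KOSR/LIF and -1.03, -0.57 and -0.67 in serum/LIF. The groups did not overlap between 2i/LIF and the other media, and KOSR/LIF replicate 3 was the lowest array. In the fit of all 21274 named probes, where 15.9% passed in 2i/LIF against serum/LIF, 4.13% in KOSR/LIF against serum/LIF and 13.6% in 2i/LIF against KOSR/LIF, this probe differed by 2.11 ± 0.41 (adjusted p = 0.00419) and 2.14 ± 0.41 (adjusted p = 0.00497).

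RefSeq gives Hk1 a pair of starts on the minus strand of chromosome 10, and both are shown because the gene rose and its promoters differ in base composition, 49.6% and 62.8% G and C. The first is upstream (chr10:62379909-62380158), the other downstream (chr10:62340422-62340671, both GRCm38.p6).
Hk1 upstream: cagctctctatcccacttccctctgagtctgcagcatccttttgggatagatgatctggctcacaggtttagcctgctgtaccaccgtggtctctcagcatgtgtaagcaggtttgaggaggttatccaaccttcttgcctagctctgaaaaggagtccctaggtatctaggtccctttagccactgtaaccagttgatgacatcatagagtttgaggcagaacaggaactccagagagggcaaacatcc
Hk1 downstream: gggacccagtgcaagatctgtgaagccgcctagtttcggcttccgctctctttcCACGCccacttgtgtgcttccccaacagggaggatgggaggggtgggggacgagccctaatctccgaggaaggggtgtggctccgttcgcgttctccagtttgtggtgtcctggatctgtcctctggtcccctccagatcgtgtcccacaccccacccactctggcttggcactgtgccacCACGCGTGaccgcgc
The upstream sequence holds none of the 3 motifs, and the downstream one holds GCGTG 3 times, of which a pair overlap. Which start these cells used was not analysed here.

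Hk2, the hexokinase induced in growing and insulin-responsive cells, did not pass in any comparison. Its levels were 4.06, 2.84, 3.75, 3.42 and 3.79 in 2i/LIF, against 3.32, 2.85 and 2.31 in KOSR/LIF and 3.36, 3.70 and 3.67 in serum/LIF. The arrays of KOSR/LIF lay below those of serum/LIF and overlapped with 2i/LIF, whose replicate 2 was low. The difference between 2i/LIF and serum/LIF was -0.00 ± 0.31 (adjusted p = 0.995), with a 95% interval of -0.68 to 0.67. KOSR/LIF against serum/LIF gave -0.75 ± 0.35 (adjusted p = 0.269). For 2i/LIF against KOSR/LIF the difference was 0.75 ± 0.31 (adjusted p = 0.140), with a 95% interval of 0.07 to 1.43. That last difference passed without 2i/LIF replicate 2 (0.93, adjusted p = 0.0388), and was 0.49 without KOSR/LIF replicate 3 (adjusted p = 0.394) and 0.44 in the value table (adjusted p = 0.219).

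**Figure D2:**
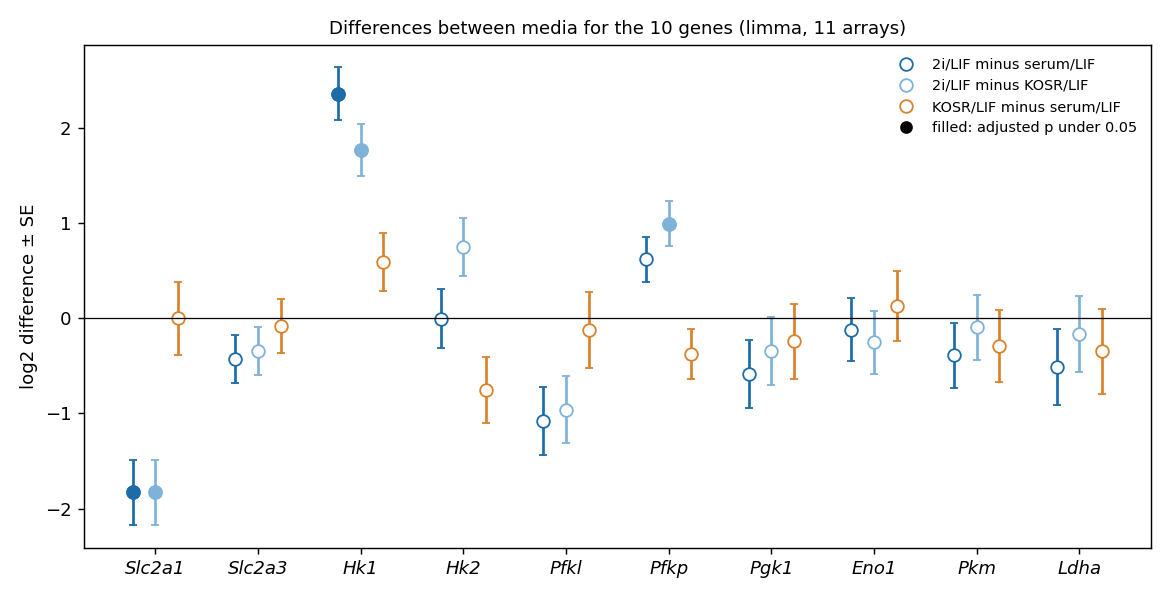
Differences between media for the 10 genes (log2, ± SE), filled where the adjusted p was below 0.05. Filled points are those of Slc2a1 and Hk1 for 2i/LIF against each other medium and Pfkp at 0.99 for 2i/LIF against KOSR/LIF.

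Phosphofructokinase is the step at which glycolysis is regulated by energy state, and its isoforms come from separate genes. Pfkp encodes the platelet isoform. Its brighter probe had levels of 3.61, 3.52, 3.97, 3.90 and 3.11 in 2i/LIF, against 2.82, 2.51 and 2.56 in KOSR/LIF and 2.77, 3.15 and 3.09 in serum/LIF. The arrays of 2i/LIF were above those of KOSR/LIF by at least 0.29 and overlapped with serum/LIF through replicate 5. Pfkp was 1.99-fold higher in 2i/LIF than in KOSR/LIF (0.99 ± 0.24, adjusted p = 0.0149). This call was lost without KOSR/LIF replicate 2 (0.94, adjusted p = 0.0582). It was kept without KOSR/LIF replicate 3 (0.96, adjusted p = 0.0392) and in the value table (0.74, adjusted p = 0.0377). Against serum/LIF the difference was 0.62 ± 0.24 (adjusted p = 0.105), and passed within scan day 1 (0.98, adjusted p = 0.0401) and without 2i/LIF replicate 5 (0.75, adjusted p = 0.0463).

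The other probe of Pfkp, A_52_P572045, was dim. It lay between -2.28 and -1.81 on all arrays but that of KOSR/LIF replicate 3, where it was at 1.98. The processed intensity there was 258, against 42.7 to 134 on the other arrays. The value table, whose column for that sample holds other values, gave log2 intensities of 6.50, 6.49 and 6.44 for this probe in KOSR/LIF replicates 1 to 3. With the mean of both probes in place of the brighter, Pfkp was -0.13 in 2i/LIF against KOSR/LIF (adjusted p = 0.878). The dim probe carried no difference between media that passed.

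The 250 bases before the start of Pfkp, on the minus strand (chr13:6648772-6649021, GRCm38.p6), are shown because that gene rose and its promoter is dense in GC boxes.
Pfkp: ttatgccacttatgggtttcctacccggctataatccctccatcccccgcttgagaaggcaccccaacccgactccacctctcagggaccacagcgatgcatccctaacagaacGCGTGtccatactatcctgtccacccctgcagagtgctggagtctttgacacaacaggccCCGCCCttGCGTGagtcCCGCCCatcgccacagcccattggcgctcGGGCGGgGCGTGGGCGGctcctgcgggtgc
The sequence holds GGGCGG 4 times and GCGTG 3 times, and 1 of each overlap.

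**Figure D3:**
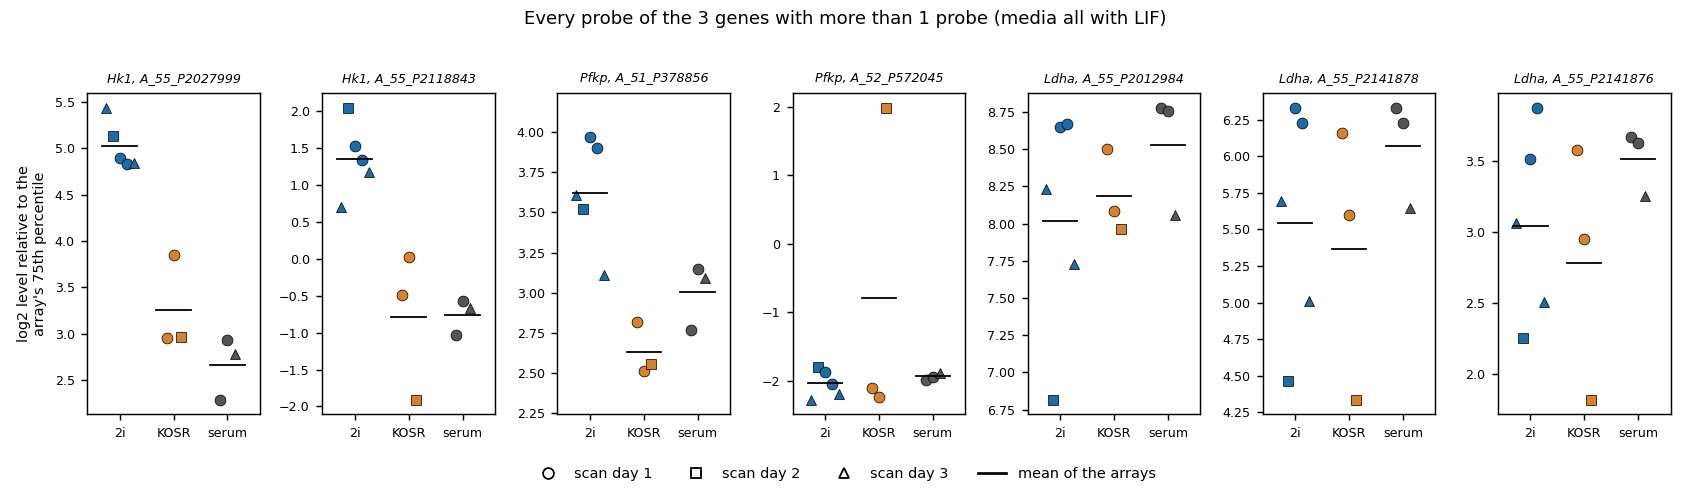
Level of every probe of Hk1, Pfkp and Ldha on each array (log2, relative to the array's 75th percentile), by medium, with the bar at the mean. Both probes of Hk1 stand higher in 2i/LIF than in the other media, while the dim probe of Pfkp stands at 1.98 on the array of KOSR/LIF replicate 3 alone.

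Pfkl, the liver isoform, lay the other way from Pfkp and close to the threshold. Its levels were 2.31, 2.61, 3.15, 2.73 and 1.51 in 2i/LIF, against 3.47, 3.38 and 3.42 in KOSR/LIF and 3.63, 4.05 and 2.95 in serum/LIF. All arrays of 2i/LIF were below those of KOSR/LIF, while replicate 3 was above serum/LIF replicate 3. The difference between 2i/LIF and serum/LIF was -1.08 ± 0.35 (adjusted p = 0.0599), and that between 2i/LIF and KOSR/LIF -0.96 ± 0.35 (adjusted p = 0.0991). The first passed in 7 of 29 alternatives, among them scan day as a block (-0.98, adjusted p = 0.0156) and the fits without serum/LIF replicate 3 (-1.38, adjusted p = 0.0403) and without 2i/LIF replicate 3 (-1.25, adjusted p = 0.0316).

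The lower steps of glycolysis did not pass in any comparison or alternative. Pgk1, phosphoglycerate kinase, makes ATP directly, Eno1, enolase, forms phosphoenolpyruvate, and Pkm, pyruvate kinase, forms pyruvate and a further ATP. Pgk1 had levels of 6.74, 6.19, 7.50, 7.48 and 6.24 in 2i/LIF, against 7.39, 7.21 and 6.93 in KOSR/LIF and 7.43, 7.85 and 6.98 in serum/LIF. Eno1 had levels of 8.05, 7.67, 8.92, 8.76 and 7.92 in 2i/LIF, against 8.41, 8.30 and 8.84 in KOSR/LIF and 8.62, 8.67 and 7.87 in serum/LIF. Within 2i/LIF, replicates 3 and 4 were high and replicates 1, 2 and 5 low for both genes, and the media overlapped.

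Pkm had levels of 6.30, 6.23, 7.50, 7.10 and 6.37 in 2i/LIF, against 6.97, 6.80 and 6.62 in KOSR/LIF and 7.28, 7.49 and 6.49 in serum/LIF. It had the same high replicates of 2i/LIF, 3 and 4, and all media overlapped. For 2i/LIF against serum/LIF the differences were -0.59 ± 0.36 for Pgk1 (adjusted p = 0.347), -0.12 ± 0.33 for Eno1 (adjusted p = 0.887) and -0.39 ± 0.34 for Pkm (adjusted p = 0.562). The 95% intervals were -1.36 to 0.19, -0.85 to 0.60 and -1.14 to 0.36, so these arrays leave room for changes of some size in either direction.

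Ldha, lactate dehydrogenase A, turns pyruvate into lactate and restores the NAD that glycolysis needs. Its brightest probe had levels of 8.23, 6.82, 8.65, 8.67 and 7.73 in 2i/LIF, against 8.50, 8.08 and 7.96 in KOSR/LIF and 8.78, 8.75 and 8.06 in serum/LIF. The media overlapped, and 2i/LIF replicate 2 was the lowest array. The difference between 2i/LIF and serum/LIF was -0.51 ± 0.40 (adjusted p = 0.50). The other probes of Ldha gave -0.52 ± 0.49 and -0.47 ± 0.44, so the 3 probes had like differences and none passed. Against KOSR/LIF the brightest probe gave -0.16 and the others 0.18 and 0.26, again without a pass.

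Levels of several genes, as scaled here, differed by scan day. Every array of day 1 was above every array of day 3 for Slc2a3 (6.95 to 7.44 on day 1, 6.19 to 6.88 on day 3), Pgk1 (7.21 to 7.85 and 6.24 to 6.98), Eno1 (8.30 to 8.92 and 7.87 to 8.05) and Pkm (6.80 to 7.50 and 6.30 to 6.49). The separation held over arrays of different media, since each of these days has arrays of 2i/LIF and serum/LIF. The 75th percentile that was subtracted ran from 176 to 268 intensity units on day 1 and from 432 to 538 on day 3. The share of all genes that separate by day in this way was not counted. The separation is therefore not shown to be a trait of these genes. Ldha overlapped, at 8.08 to 8.78 on day 1 and 7.73 to 8.23 on day 3. Within day 1 the differences between 2i/LIF and serum/LIF were -0.15 for Pgk1, 0.20 for Eno1, -0.08 for Pkm and -0.11 for Ldha. Within day 3 they were -0.48, 0.11, -0.16 and -0.08 for the same genes. Hk1 kept a difference of 2.25 and 2.36 on these days, and Slc2a1 one of -1.28 and -1.93. By log2 intensity in the value table, days 1 and 3 overlapped for Slc2a3, with serum/LIF replicate 3 at 15.17 and 2i/LIF replicate 3 at 14.91. They overlapped for Eno1 too, with KOSR/LIF replicate 1 at 16.41 and 2i/LIF replicates 1 and 4 at 16.52 and 16.46. Pgk1 and Pkm stayed apart there only with the columns of 2i/LIF replicates 1 and 4 exchanged. Scan day is the label in the file headers; whether cultures or extractions differed by day was not analysed here.

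**Figure D4:**
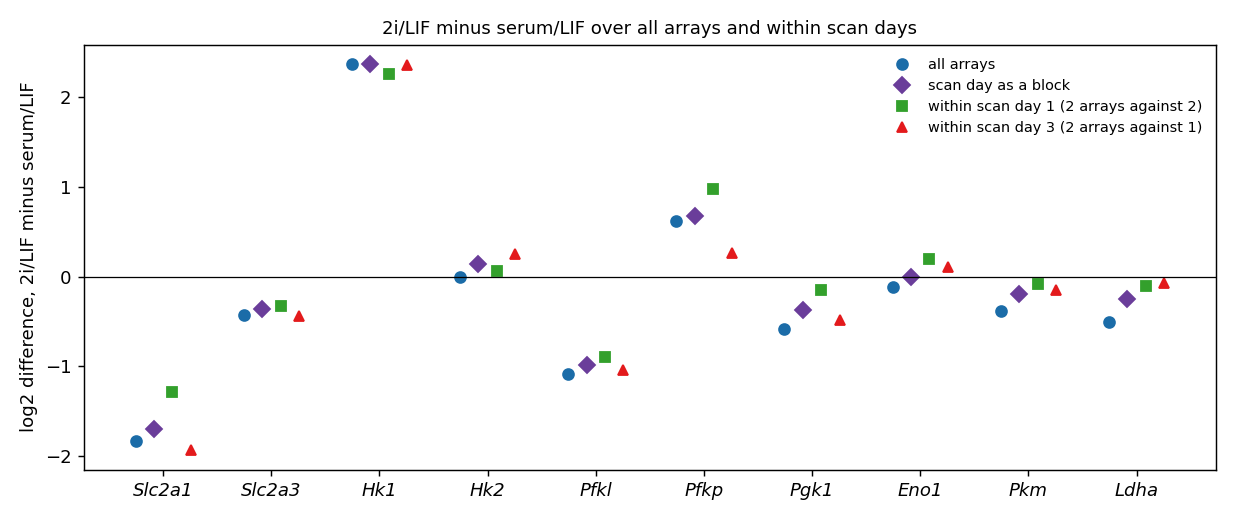
Difference between 2i/LIF and serum/LIF for each gene (log2) over all arrays, with scan day as a block, within scan day 1 and within scan day 3. Hk1 stands above 2 and Slc2a1 below -1 in each version, while Pgk1, Eno1, Pkm and Ldha run from -0.48 to 0.20 within a day.

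Of 22 listed glycolytic enzymes outside the 10, 21 were tested. In 2i/LIF against serum/LIF 1 was higher and 0 lower, beside 16.7% of all genes called, in KOSR/LIF against serum/LIF 0 passed in limma's test (4 had an unadjusted p under 0.05), and in 2i/LIF against KOSR/LIF 1 was lower, beside 14.7% of all genes called. The gene that rose was Adpgk, an ADP-dependent glucokinase, with a mean level of 2.87 ± 0.35 in 2i/LIF and 1.98 ± 0.26 in serum/LIF (0.89 ± 0.24, adjusted p = 0.0234), a call kept in 24 of 29 alternatives and lost without serum/LIF replicate 1 or 3. The gene that fell was Eno3, the muscle enolase, at 2.10 ± 0.33 in 2i/LIF and 2.99 ± 0.15 in KOSR/LIF (-0.89 ± 0.24, adjusted p = 0.0261), a call kept in 17 of 28 alternatives and lost in the value table (-0.75, adjusted p = 0.0607). The steps that join the 10 genes did not pass: in 2i/LIF against serum/LIF the differences were 0.30 for Gpi1, 0.14 for Aldoa, -0.01 for Tpi1, -0.01 for Gapdh and -0.05 for Pgam1, each with an SE of 0.24 to 0.34. The list's medians were 0.06 in 2i/LIF against serum/LIF, 0.31 in KOSR/LIF against serum/LIF and -0.16 in 2i/LIF against KOSR/LIF.

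At the exit of the pathway, of 23 genes of pyruvate and lactate use 4 were higher and 1 lower in 2i/LIF against serum/LIF, where 16.7% of all genes passed, 0 passed in KOSR/LIF against serum/LIF in limma's test (5 had an unadjusted p under 0.05), and 1 rose and 2 fell in 2i/LIF against KOSR/LIF, where 14.7% of all genes passed. The list's medians in the same order were 0.02, -0.07 and 0.25. Pdk1 encodes a kinase that switches off pyruvate dehydrogenase. Its mean level was 0.73 ± 1.04 in 2i/LIF (SD, n = 5), against 3.10 ± 0.43 in KOSR/LIF and 3.26 ± 0.25 in serum/LIF (n = 3 each), and the arrays of 2i/LIF, at -0.78 to 1.81, were all below the others. The differences were -2.53 ± 0.50 against serum/LIF (adjusted p = 0.00421) and -2.36 ± 0.50 against KOSR/LIF (adjusted p = 0.00782). Pdp2, a phosphatase that switches the same complex on, was at 2.96 ± 0.81 in 2i/LIF, against 0.60 ± 0.61 in KOSR/LIF and 0.92 ± 0.23 in serum/LIF. It rose by 2.04 ± 0.44 against serum/LIF (adjusted p = 0.00670) and by 2.35 ± 0.44 against KOSR/LIF (adjusted p = 0.00367).

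Mpc1 and Mpc2 form the carrier that brings pyruvate into the mitochondrion. Mpc1 was at 3.86 ± 0.58 in 2i/LIF and 2.23 ± 0.32 in serum/LIF (1.63 ± 0.32, adjusted p = 0.00400), and in 2i/LIF against KOSR/LIF, at 3.41 ± 0.14, it did not pass (0.45 ± 0.32, adjusted p = 0.415). In KOSR/LIF against serum/LIF Mpc1 differed by 1.18 ± 0.36 (adjusted p = 0.0904), and this passed with scan day as a block (1.55, adjusted p = 0.00476) and within scan day 1 (1.42, adjusted p = 0.0257). Mpc2 (0.90 ± 0.21, adjusted p = 0.0104) and the malic enzyme Me1 (1.28 ± 0.35, adjusted p = 0.0236), both named after their values were seen, rose in 2i/LIF against serum/LIF. Slc16a3, the lactate exporter MCT4, was at 3.29 ± 1.56 in 2i/LIF, against 5.64 ± 0.30 in KOSR/LIF and 5.17 ± 0.39 in serum/LIF. It fell against KOSR/LIF (-2.35 ± 0.71, adjusted p = 0.0454) and did not pass against serum/LIF (-1.88 ± 0.71, adjusted p = 0.0993). Its 5 arrays of 2i/LIF were spread from 1.42 to 5.09, and the call was kept in 9 of 28 alternatives. Without KOSR/LIF replicate 3 the difference from KOSR/LIF was -2.21 (adjusted p = 0.134), and in the value table -1.33 (adjusted p = 0.146).

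**Figure D5:**
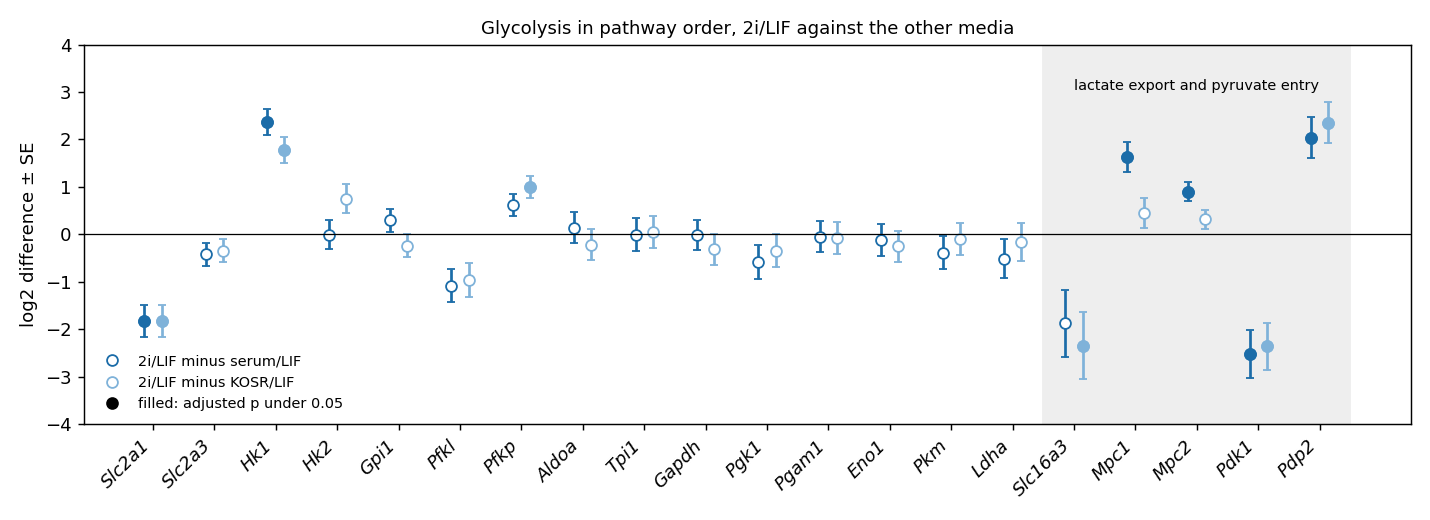
Differences of 2i/LIF from serum/LIF and from KOSR/LIF (log2, ± SE) for glycolysis in pathway order and, shaded, for lactate export and pyruvate entry, filled where the adjusted p was below 0.05. Filled points stand at Slc2a1, Hk1 and Pfkp at the start and at Pdk1, Pdp2, Mpc1, Mpc2 and Slc16a3 at the end, with none from Aldoa to Ldha.

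Among 8 other hexose carriers tested of 12 listed, Slc2a7 rose in 2i/LIF and in KOSR/LIF against serum/LIF. Beside it, 16.7% and 4.58% of all genes passed in these comparisons, and 14.7% in 2i/LIF against KOSR/LIF. Slc2a7 was at -1.80 ± 0.25 in 2i/LIF and -2.67 ± 0.34 in KOSR/LIF, against -5.71 ± 0.80 in serum/LIF, where 1 of 3 arrays was above background. The differences of 3.91 ± 0.33 (adjusted p = 1.71e-05) and 3.03 ± 0.37 (adjusted p = 0.00378) therefore depend on how dim signal is treated, and with normexp background correction they were 1.13 and 1.00 (adjusted p = 0.0169 and 0.142). Slc2a5, the fructose carrier, and Slc2a6 fell in 2i/LIF against KOSR/LIF (-1.28 ± 0.37, adjusted p = 0.0395, and -1.37 ± 0.37, adjusted p = 0.0273). Without KOSR/LIF replicate 3 neither passed (-1.24 for both, adjusted p = 0.103 and 0.0925), nor did they in the value table (-0.97 and -0.80).

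In the pentose phosphate pathway, which makes NADPH and ribose, H6pd alone of 10 genes passed in 2i/LIF against serum/LIF and Pgd alone in 2i/LIF against KOSR/LIF, both higher. Shares of all genes that passed there were 16.7% and 14.7%, with 6.74% and 5.95% as higher. In KOSR/LIF against serum/LIF 0 passed in limma's test and 4 had an unadjusted p under 0.05. The medians of the 10 were 0.24, 0.40 and -0.02 in these comparisons. H6pd, an enzyme of the endoplasmic reticulum, was at 2.09 ± 0.29 in 2i/LIF and 0.47 ± 0.33 in serum/LIF (1.61 ± 0.27, adjusted p = 0.00155). Pgd was at 5.41 ± 0.25 in 2i/LIF and 4.02 ± 0.99 in KOSR/LIF (1.39 ± 0.38, adjusted p = 0.0291), and without KOSR/LIF replicate 3 the difference was 0.82 (adjusted p = 0.0687). Of 11 genes of fructose 2,6-bisphosphate and gluconeogenesis, Fbp1 rose in 2i/LIF against serum/LIF (1.27 ± 0.37, adjusted p = 0.0333), a call kept in 17 of 29 alternatives. In KOSR/LIF against serum/LIF 0 passed in limma's test (5 had an unadjusted p under 0.05). Fbp1 there differed by 1.51 ± 0.41 (adjusted p = 0.0607), and passed with scan day as a block (1.91, adjusted p = 0.0123), without KOSR/LIF replicate 3 (1.91, adjusted p = 0.0249) and in the value table (1.39, adjusted p = 0.0268). In 2i/LIF against KOSR/LIF 2 rose and 1 fell, where 14.7% of all genes passed. The medians of the 11 were 0.30 in 2i/LIF against serum/LIF, -0.24 in KOSR/LIF against serum/LIF and -0.07 in 2i/LIF against KOSR/LIF. Tigar, which lowers fructose 2,6-bisphosphate, rose in 2i/LIF against KOSR/LIF (1.38 ± 0.25, adjusted p = 0.00306), as did Pck2 (1.28 ± 0.33, adjusted p = 0.0234), whose call was lost without KOSR/LIF replicate 3 (1.23, adjusted p = 0.0695) and with normexp (0.20, adjusted p = 0.700). Pck1 was at least 1.87-fold lower in 2i/LIF than in KOSR/LIF (adjusted p = 0.00922), since it was above background on no array of 2i/LIF and on 2 of 3 of KOSR/LIF. That bound sets the mean of KOSR/LIF against the lowest signal well above background on the 2i/LIF arrays. The call was lost with normexp (-0.86, adjusted p = 0.191), in the value table (-1.69, adjusted p = 0.120) and with the replicate block (-2.03, adjusted p = 0.0558), from a fitted difference of -2.40.

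In glycogen metabolism 11 of 12 listed genes were tested. In 2i/LIF against serum/LIF 1 rose and 3 fell, in KOSR/LIF against serum/LIF 0 passed in limma's test (2 had an unadjusted p under 0.05), and in 2i/LIF against KOSR/LIF 4 fell. Of all genes, 16.7% passed in 2i/LIF against serum/LIF (9.98% as lower) and 14.7% in 2i/LIF against KOSR/LIF (8.72% as lower). The list's medians in the same order were -0.09, 0.35 and -0.48. Gyg, the glycogenin that primes glycogen, was at 1.23 ± 0.49 in 2i/LIF, against 2.24 ± 0.30 in KOSR/LIF and 2.59 ± 0.11 in serum/LIF. It fell against serum/LIF (-1.35 ± 0.28, adjusted p = 0.00601) and against KOSR/LIF (-1.01 ± 0.28, adjusted p = 0.0337). Gbe1, the branching enzyme, and Pgm2l1 fell in the same comparisons, with differences of -1.08 and -1.49 from serum/LIF and of -1.38 and -1.18 from KOSR/LIF. The call of Gbe1 against serum/LIF was kept in 12 of 29 alternatives and lost without any 1 array of serum/LIF, and that of Gyg against KOSR/LIF was kept in 14 of 28. Pgm1, which joins glycogen to glycolysis, fell against KOSR/LIF (-2.09 ± 0.47, adjusted p = 0.0114). The riser was Pgm2 (1.23 ± 0.26, adjusted p = 0.00597), named after its value was seen.

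Of 17 regulators of glucose metabolism tested, 4 fell and 0 rose in 2i/LIF against serum/LIF, 1 fell in KOSR/LIF against serum/LIF, and 2 rose and 3 fell in 2i/LIF against KOSR/LIF. In turn, the shares of all genes that passed were 16.7% (9.98% as lower), 4.58% (2.21% as lower) and 14.7% (8.72% as lower). The list's medians in the same order were -0.06, -0.39 and 0.13. Myc, an activator of glycolytic genes, was at -2.14 ± 1.12 in 2i/LIF, against 0.17 ± 0.73 in KOSR/LIF and 1.43 ± 0.02 in serum/LIF. It fell by 3.57 on the log2 scale against serum/LIF (adjusted p = 0.000918) and by 2.31 against KOSR/LIF (adjusted p = 0.0153), and 1 array of 2i/LIF was not well above background. Lin28b and Lin28a, RNA-binding proteins that block let-7 microRNAs, fell, with differences of -3.30 and -3.01 from serum/LIF (adjusted p = 7.41e-06 and 0.00232) and of -2.50 and -2.52 from KOSR/LIF (adjusted p = 7.86e-05 and 0.00851). Mycn, named after its values were seen, fell in both other media against serum/LIF, with -1.30 in 2i/LIF (adjusted p = 0.00736) and -1.41 in KOSR/LIF (adjusted p = 0.0292). The call in KOSR/LIF was kept in 19 of 28 alternatives and lost without serum/LIF replicate 1 or 2 or KOSR/LIF replicate 1 or 2 (adjusted p from 0.0972 to 0.121). Prkaa2, a catalytic subunit of the energy sensor AMPK, rose in 2i/LIF against KOSR/LIF (1.47 ± 0.30, adjusted p = 0.00611). The other riser there was Mycl, of the same family as Myc and Mycn and named after its value was seen. It differed by 1.37 (adjusted p = 0.00481), a call kept in 24 of 28 alternatives. In the value table the call of Mycl was lost (0.69, adjusted p = 0.2).

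Of 17 other hypoxia-inducible genes tested, 1 rose and 2 fell in 2i/LIF against serum/LIF, 2 rose in KOSR/LIF against serum/LIF, and 1 rose and 6 fell in 2i/LIF against KOSR/LIF. Beside these counts, 16.7%, 4.58% and 14.7% of all genes passed in the 3 comparisons. The shares called lower were 9.98%, 2.21% and 8.72%, and those called higher 6.74%, 2.37% and 5.95%. P4ha2, a collagen prolyl hydroxylase, was at -0.24 ± 0.56 in 2i/LIF, against 2.22 ± 0.90 in KOSR/LIF and 1.46 ± 0.20 in serum/LIF. It fell against KOSR/LIF (-2.45 ± 0.41, adjusted p = 0.00188) and against serum/LIF (-1.69 ± 0.41, adjusted p = 0.0128). Car9, a carbonic anhydrase, rose in KOSR/LIF against serum/LIF (2.15 ± 0.43, adjusted p = 0.0180) and fell in 2i/LIF against KOSR/LIF (-1.68 ± 0.38, adjusted p = 0.0120). In the value table, with other values for KOSR/LIF replicate 3, these differences of Car9 were 1.47 and -1.15 and passed in neither case, and the first was kept in 22 of 28 alternatives. Adm, the peptide hormone adrenomedullin, fell in 2i/LIF against KOSR/LIF (-2.62 ± 0.57, adjusted p = 0.00897). Bnip3, a mitophagy receptor, fell in that comparison too (-2.33 ± 0.68, adjusted p = 0.0406), and kept the call in 11 of 28 alternatives, with -2.28 without KOSR/LIF replicate 3 (adjusted p = 0.110) and -1.93 in the value table (adjusted p = 0.0711). The riser in 2i/LIF against each other medium was Ak4, named after its values were seen. Against serum/LIF it rose by 2.10 (adjusted p = 0.00248), a call kept in 29 of 29 alternatives. Against KOSR/LIF it rose by 1.28 (adjusted p = 0.0428), a call kept in 12 of 28. That call was lost without KOSR/LIF replicate 3 (0.90, adjusted p = 0.168). The median of the list was -0.33 in 2i/LIF against serum/LIF, 0.72 in KOSR/LIF against serum/LIF and -0.55 in 2i/LIF against KOSR/LIF, beside 0.03, -0.03 and 0.02 for all genes.

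The genes most like Slc2a1 over the 11 arrays, by the root mean square difference of mean-centred levels, were Sema3f (0.28), Olfr1384 (0.28) and Bcar1 (0.33). For Hk1 they were D5Ertd605e (0.25), Efhb (0.30) and Was (0.31). For Pfkp they were Clcn2 (0.17), Rfng (0.20) and 1810037I17Rik (0.21). The members' own root mean square deviations about their means were 1.00 for Slc2a1, 1.09 for Hk1 and 0.49 for Pfkp. Across the 11 arrays the SD of Hk1 was larger than that of 87.2% of all genes tested and that of Slc2a1 larger than 84.3%, while that of Slc2a3 was larger than 21.1%.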

How the data were processed

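Cy3-labelled RNA was hybridised to 1-colour Agilent arrays, 1 per sample, and per the file headers the spots were read with version 11.0.1.1 of Agilent Feature Extraction. The deposited scanner files hold processed signal intensity, which was background-subtracted and detrended within the array and not scaled between arrays, per the file headers. Other spot flags in those files are 0 or 1 (well above background, saturated), per the file headers. The deposited value table holds intensities on a linear scale whose columns have near-equal medians (46.5 to 47.8). The sources used here do not give how the authors made it, and it served as an alternative.

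Control spots and flagged outliers were left out and spots of a probe averaged. The log2 of processed intensity was taken minus each array's 75th percentile. Of 55681 probes, 29109 carried a RefSeq accession and 27642 were named through it, for 20964 genes. A gene was tested where a probe exceeded background clearly on 3 or more of the 11 arrays, and its brightest probe stood for it. The 3 media were fitted in 1 model with limma 3.58.1 in R 4.3.3, without covariates, and p-values were adjusted by Benjamini-Hochberg over 16279 genes. The scripts were tested on simulated data. Tables and plots were made with Python 3.11.15, pandas 2.3.3 and matplotlib 3.10.9.

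The 10 genes and all lists were chosen with earlier results of these data known. All 10 are named whatever their result, with the steps between them. Of each other list, up to 4 genes that passed with the largest differences are named, and of like patterns the 3 nearest genes of each member that passed. Genes outside this rule are marked as such. Normexp used the spots' median signal and median background, offset 50, in place of the mean signal named in the plan. Other alternatives were quantile and median scaling, the value table, other filters, the mean of probes, blocks for replicate number, line, scan day and slide, within-day fits, only the media compared, limma with trend and robust, and leaving out arrays. Samples of a medium come from separate lines or repeat samples of a line, and 11 arrays limit the precision.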

Additional observations from a re-analysis of the deposited data

How the results depend on the processing

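Of the calls on the 10 genes, that of Slc2a1 in 2i/LIF against serum/LIF was kept in 28 of 29 alternatives and against KOSR/LIF in 28 of 28, and that of Hk1 in 29 of 29 and 27 of 28. The call of Pfkp in 2i/LIF against KOSR/LIF was kept in 25 of 28. With the mean of a gene's probes its difference turned to -0.13, where the dim probe of KOSR/LIF replicate 3 enters the mean. In 2i/LIF against serum/LIF, 2 of the 10 genes were lower with the stricter filter, with scan day or slide as a block, with slide as a random block and with limma's trend and robust options, and 0 within scan day 3. In that comparison 2 were higher within scan day 1 and with slide as a fixed or random block. In 2i/LIF against KOSR/LIF 1 was higher with the mean of probes, with the replicate block and within scan day 1. Leaving out 1 array gave 1 to 2 higher and 1 to 2 lower in 2i/LIF against serum/LIF, and 1 to 3 higher in 2i/LIF against KOSR/LIF. The cause of these changes was not tested.

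Over all genes, normexp called 1751 in 2i/LIF against serum/LIF, 371 in KOSR/LIF against serum/LIF and 1512 in 2i/LIF against KOSR/LIF, against 2722, 745 and 2388 as reported. In KOSR/LIF against serum/LIF no filter gave 451 and slide as a random block 1662, and within scan day 3 the count in 2i/LIF against serum/LIF was 1117, from fewer arrays. Leaving out 1 array gave 1869 to 3203, 225 to 915 and 1759 to 2593 in the 3 comparisons. In KOSR/LIF against serum/LIF the count was 225, 331 and 391 without serum/LIF replicates 1, 2 and 3, and 395 and 386 without KOSR/LIF replicates 1 and 2. Without a filter the median of all genes was 0.15 in KOSR/LIF against serum/LIF and -0.15 in 2i/LIF against KOSR/LIF.

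Replicate numbers did not pair the samples: the correlations of deviations for equal numbers were -0.00, 0.18 and -0.20 for 2i/LIF with serum/LIF, 0.04, 0.02 and -0.06 for 2i/LIF with KOSR/LIF, and -0.01, 0.14 and -0.02 for KOSR/LIF with serum/LIF. Within a scan day the correlations were 0.07 to 0.25 for 2i/LIF with serum/LIF, against -0.28 to 0.18 across days. They were -0.08 to 0.19 against -0.33 to 0.12 for 2i/LIF with KOSR/LIF, and -0.19 to 0.14 against -0.09 to 0.13 for KOSR/LIF with serum/LIF. The correlation fitted for slide as a random block was 0.57, so arrays of a slide were not independent. The main fit had no term for day or slide. With the replicate block 1929, 503 and 1408 genes were called in 2i/LIF against serum/LIF, KOSR/LIF against serum/LIF and 2i/LIF against KOSR/LIF. Pfkp in 2i/LIF against KOSR/LIF was then 1.07 (adjusted p = 0.0567). Blocks for replicate and line rest on labels that 5 scanner files do not match in the value table.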
